A study of Sparassis latifolia with 18 samples.

Results

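Very abundant transcripts of S. latifolia mycelium outside the study's own gene lists were described over the course of pine sawdust inducing (PSI). They were chosen by level: genes with an EVM identifier of the S. latifolia genome, listed neither among the study's common DEGs, nor among its DEGs of the time-correlated module, nor among its genes for qRT-PCR, with a mean FPKM over all 18 libraries of at least 300. FPKM is the number of fragments mapped to a gene, divided by the length of its transcript and by the number of fragments mapped in the library. This rule took 73 of the 1100 genes in the deposited table, which is 6.64% of them. How the genes of the table were selected is not stated, and genes outside it were not analysed here, so ranks and shares hold within the table and more abundant transcripts may lie outside it. S. latifolia is an edible brown-rot mushroom that grows on conifer wood, and all libraries came from mycelium of its strain SP-C. The mycelium was grown in shaken liquid medium, homogenized and grown again, and sterilized fresh pine sawdust went into the flasks for a set time, with all flasks harvested together. The control CK had no time with sawdust. The group names 1h, 6h, 1d, 5d and 10d give the hours (h) or days (d) with it. Each group had 3 libraries, described by the study as biological replicates. From the correlation between samples the study left out 4 libraries: the first of CK (CK-1), the third of 1h (T-1h-3), the third of 1d (T-1d-3) and the second of 5d (T-5d-2). The other 14 are called kept here. Where 3 values are given for a group they are in the order of the replicate numbers.

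In a growing fungus a small number of genes supplies a large part of the mRNA. In well-studied fungi such genes encode ribosomal proteins, translation factors, enzymes of glycolysis, histones, stress proteins and small secreted proteins of the cell surface. FPKM gives relative and not absolute amounts, and a rise of a very abundant transcript lowers the FPKM of the others. Fewer cells with a transcript and less transcript per cell cannot be told apart in such libraries. The functions of the 73 members are not given in the sources used here: 0 identifiers of the table matched the reference gene table of another S. latifolia strain. The members are therefore named by their identifiers alone, and no role is given to any of them.

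The level chose the members, so all levels and shares are descriptions without a test. EVM0003720 led by a wide margin, with a mean of 15356, and was 5.96 times as high as EVM0008528, the second. Of the members, 12 had a mean of at least 1000, 15 lay between 500 and 1000, and 46 between 300 and 500. EVM0003720 alone made up 25.2% of the members' summed mean FPKM, the first 10 members made up 49.1%, and 11 members were needed to reach 50%. The members just inside the threshold were EVM0006462 with a mean of 300, EVM0007814 with 303 and EVM0000111 with 307. Just outside were EVM0004349 with 296, EVM0003819 with 286 and EVM0009647 with 286. High means did not imply steady levels. In only 19 members was the FPKM at least 300 in each of the 18 libraries, and in 21 it was so in the mean of every group over the 14 libraries kept by the study. EVM0010323, named after its values were seen, reached 300 in the mean of a single group, 10d, with 544 ± 71.2 (SD, n = 3).

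**Figure D1:**
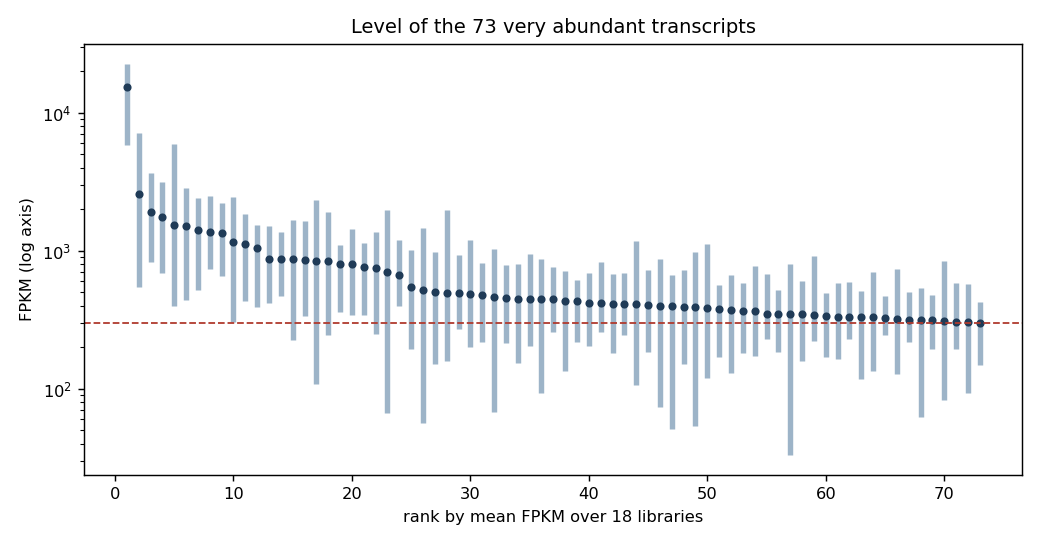
FPKM (log axis) of the 73 members in order of their mean over the 18 libraries. Points are means, bars run from the lowest to the highest library, and the dashed line is the threshold of 300. EVM0003720 stands at 15356, and most members dip under 300 in some library.

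The members held between 41.1% and 50.8% of the table in every library, and the genes that made up this share differed by group. Their summed FPKM as a percent of the summed FPKM of all 1100 genes ran from 41.1% in T-1h-1 to 50.8% in T-1d-3. In the CK libraries it was 50.3%, 49.3% and 49.3%. It was lowest at 1h, with 41.1%, 43.3% and 44.3% in the 3 libraries, all below every library of the other groups. At 6h the 3 libraries lay between 47.5% and 48.0%. The 1d libraries gave 48.0%, 50.3% and 50.8%, and the 5d libraries 48.8%, 47.2% and 48.5%. At 10d the share was 45.3%, 44.7% and 44.9%, below all CK libraries. Over the kept libraries CK had a mean of 49.3% ± 0.0161 (SD, n = 2). The mean at 1h was 42.2% ± 1.60 (SD, n = 2), and that at 10d was 45.0% ± 0.303 (SD, n = 3). The summed FPKM of the 1100 genes was itself not constant. It was between 103912 and 112277 in the CK and 1h libraries and between 129388 and 148824 in the later ones. In CK the members' sum was 51829 ± 153 (SD, n = 2). At 10d it was 66227 ± 582 (SD, n = 3), while the sum of the other genes went from 53281 to 81078 between the same groups. These shares are shares of FPKM and not of reads, because FPKM divides by transcript length.

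**Figure D2:**
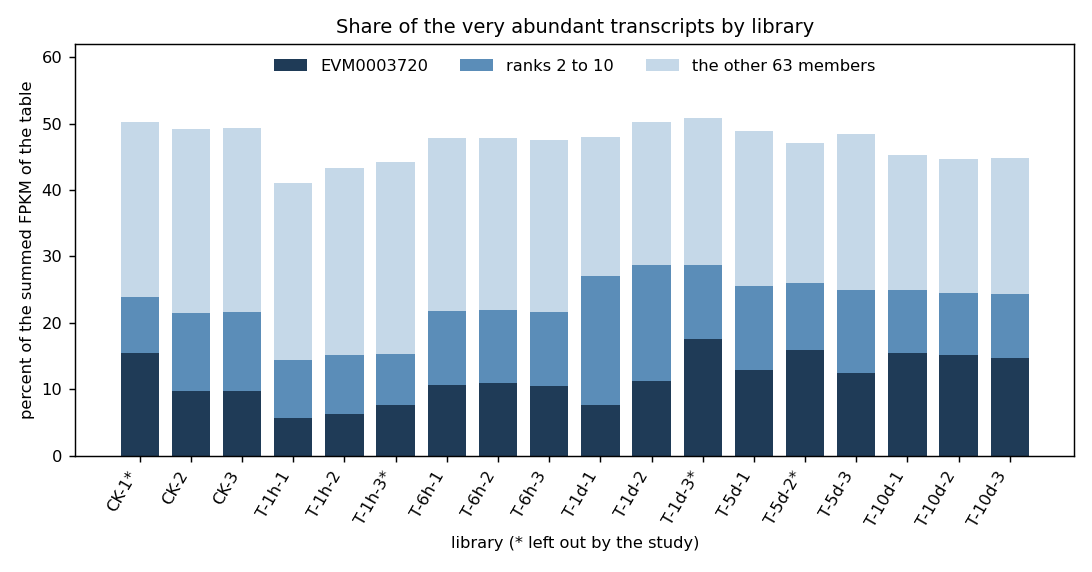
Percent of the summed FPKM of the deposited table held by EVM0003720, by the members of rank 2 to 10 and by the other 63 members, in each of the 18 libraries. Asterisks mark the libraries left out by the study. The whole bar lies between 41.1% and 50.8%, and the lowest part, EVM0003720, between 5.65% and 17.6%.

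EVM0003720 took 9.74% of the summed FPKM in both kept CK libraries, and 15.5% in the left-out CK-1. It took 5.65%, 6.28% and 7.61% in the 1h libraries and 15.5%, 15.1% and 14.7% in the 10d libraries. The members of rank 2 to 10 were highest at 1d, with 19.5% in T-1d-1 and 17.5% in T-1d-2, but with 11.1% in T-1d-3. They held 11.8% and 11.9% in the kept CK libraries and 9.41%, 9.37% and 9.60% in the 10d libraries. The remaining 63 members held 27.7% of the sum in the kept CK libraries, 26.4% in CK-1 and between 20.2% and 20.6% at 10d. Without EVM0003720, in the members and in the total, the share was 43.8% in the kept CK libraries, 41.1% in CK-1 and between 34.8% and 35.4% at 10d.

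EVM0003720 was the most abundant member in each of the 18 libraries. Its FPKM was 17391, 10264 and 10218 in CK and 5871, 6964 and 8541 at 1h. At 6h it was 15439, 15807 and 15200. The 1d libraries were far apart, with 9787, 14899 and 22775. At 5d the values were 17377, 22544 and 16546, and at 10d 22558, 22285 and 21948. The 1h libraries were the lowest of all, and the 10d libraries lay above all CK libraries. At 10d EVM0003720 was higher than in CK by 1.12 on the log2 scale (SE 0.19, limma adjusted p = 8.91e-05), and from 1h to 6h it rose by 1.28 (SE 0.19, limma adjusted p = 5.65e-05). A gene was called with the thresholds of the study, a fold change over 2 with an adjusted p under 0.01. With all 18 libraries neither difference was called: the log2 differences were 0.87 (SE 0.33, limma adjusted p = 0.0254) and 1.14 (SE 0.33, limma adjusted p = 0.0119). Adding CK-1 alone to the kept libraries also gave 0.87 at 10d, not called. Quantile normalization gives the highest gene of every library the same value, and EVM0003720 was the highest gene of the table in every library of CK, 1h, 6h and 10d, so that this scaling could show no difference between them.

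The next members by level each had a course of their own. EVM0008528 was at 546, 2015 and 2066 in CK, 7117, 5729 and 2245 at 1d, and 911, 978 and 931 at 10d. In CK and at 1d the left-out library was the lowest by far. Over the kept libraries it was called up at 1d (1.65, SE 0.13) and down at 10d (-1.12, SE 0.12), and with all 18 libraries neither was called. Quantile normalization gave 0.18 at 1d, not called, and -1.95 at 10d, called down. EVM0007108 was highest at 1d in all its libraries, with 3644, 3396 and 3198 against 1537, 1178 and 1204 in CK. The rise on the log2 scale was 1.56 (SE 0.14), and 1.39 with all 18 libraries, and it was called in both. Quantile normalization gave 0.61, not called. EVM0013081 was at 2080, 3108 and 3159 in CK and fell at 1h to 1211, 982 and 691, with no overlap. It was called down at 1h (-1.52, SE 0.11) and at 10d (-1.31, SE 0.10), also with all 18 libraries (-1.54 and -1.11), and was called up again from 1h to 6h (1.27, SE 0.10).

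EVM0001009 was at 438, 637 and 538 in CK, 2243, 1919 and 2056 at 6h, 2687, 1443 and 2846 at 5d and 1741, 1795 and 1946 at 10d. Its values from 6h on lay above every CK library. It was called up at 6h, 1d, 5d and 10d, with or without the left-out libraries, and its largest log2 fold change was 2.24 at 5d (SE 0.26). Quantile normalization called it at 6h (1.42) and 5d (1.70), but not at 1d (0.93) or 10d (0.93). EVM0001700 had its lowest values at 1d, with 516, 644 and 764, and its highest at 10d, with 2323, 2401 and 2248. It was called down at 1d (-1.37, SE 0.11) and up from 1d to 5d (1.89, SE 0.11). EVM0001047 was called at 10d alone. Its FPKM was 2315, 2487 and 2406 there against 1181, 903 and 935 in CK, and the log2 fold change was 1.38 (SE 0.12, limma adjusted p = 1.78e-07). Quantile normalization gave 0.79, not called. EVM0009825 was called in none of the 9 comparisons over the kept libraries. At 1d, with 2218, 2221 and 1457 against 657, 1155 and 1117 in CK, its log2 fold change of 0.97 (SE 0.11) missed the fold threshold, and with all 18 libraries it was 1.03 and called.

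**Figure D3:**
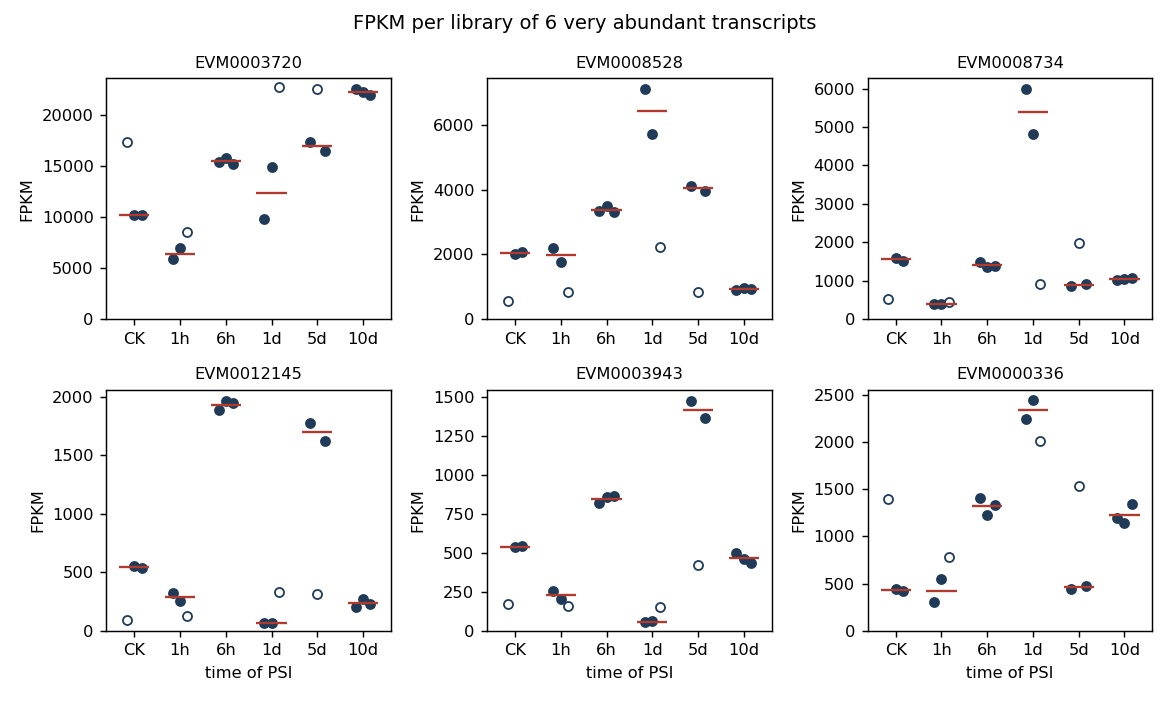
FPKM of 6 members in each library, by time of PSI. Filled points are libraries kept by the study, open points are the 4 left-out libraries, and lines are means over the kept libraries. EVM0003720 is lowest at 1h and highest at 10d, and in several panels the open points lie far from the filled ones of the same group.

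For the comparisons with CK, log2(FPKM + 1) of all genes was fitted with limma, and calls used the thresholds given with EVM0003720. The rule used the mean over all groups and not the difference between them, but a gene that is high in part of the groups can enter through these. All 73 members passed the filter on low values. The background of all genes holds the members and also kinds of genes that the rule left out. In the table these are 99 EVM genes of the study's lists and 115 genes without an EVM identifier. The 5 comparisons share the CK libraries. At 1h 7 members were called up and 6 down, which is 9.59% and 8.22% of them. Over the 1088 genes tested, 10.6% were up and 7.44% down, so the members' shares were near this background. At 6h 17 members were up, or 23.3%, and 4 down, against 13.9% up and 8.82% down of all genes. At 1d 19 were up, or 26.0%, and 14 down, or 19.2%, against 8.55% and 18.3%. The numbers at 5d were 19 up and 12 down, with a background of 14.2% and 22.3%. At 10d 24 members were up, or 32.9%, and 18 down, or 24.7%, against 18.5% and 35.0%. In all, 65 of 73 members were called at some time, 89.0% against 79.4% of all genes tested, and 8 members were called at no time. With all 18 libraries 59 were called at some time, 80.8% against 75.0% of all genes, and 14 at no time.

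The median log2 fold change of the members lay above that of all genes tested at each time. It was 0.01 against -0.12 at 1h, 0.50 against 0.02 at 6h, 0.12 against -0.13 at 1d, 0.49 against -0.23 at 5d and 0.42 against -0.44 at 10d. Because the rule favours genes higher with PSI, it can itself raise the members' medians and shares called up. This order is therefore a description. Centring each library on its median kept this order at all 5 times, with 0.69 for the members and -0.18 for all genes at 10d. With quantile normalization the members lay above all genes at 6h (0.03 against -0.03), 1d (0.12 against 0.08) and 5d (0.16 against 0.00), and below them at 1h (-0.13 against -0.08) and 10d (0.01 against 0.02). The shares of calls also depended on the scaling. With quantile normalization 5 members were up and 9 down at 1h, against 10.8% and 8.18% of all genes. The counts were 7 and 6 at 6h (10.5% and 10.4% of all genes) and 13 and 16 at 1d (11.1% and 13.0%). At 5d 8 members were up, or 11.0%, and 17 down, or 23.3%, against 16.5% and 16.5% of all genes. At 10d 13 were up, or 17.8%, and 21 down, or 28.8%, against 23.3% and 21.3%. At 5d and 10d the members' share of rises was thus above that of all genes with the main scaling and below it with quantile normalization, and for falls the order was the reverse. Median centring gave 28 up and 13 down at 10d, against 26.8% and 27.3% of all genes. No member called with the main scaling was called in the opposite direction by either. With all 18 libraries, 9 members were up and 5 down at 1h, against 9.97% and 5.31% of all genes tested. The members' counts were 17 and 4 at 6h (14.1% and 4.39% of all genes), 16 and 13 at 1d (6.50% and 14.5%), 13 and 13 at 5d (11.7% and 17.6%), and 14 and 14 at 10d (14.1% and 31.8%). Adding CK-1 alone to the kept libraries gave 17 up and 14 down at 10d, against 15.2% and 33.2% of all genes.

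**Figure D4:**
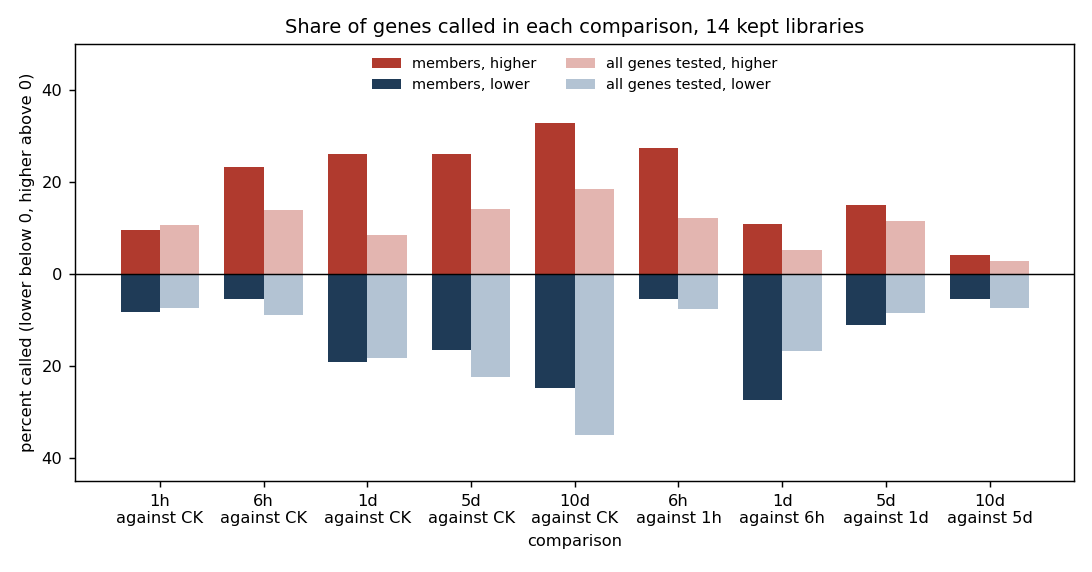
Percent of the 73 members and of all 1088 genes tested that were called higher (above 0) or lower (below 0) in each of 9 comparisons, over the 14 kept libraries. At 1d against CK 26.0% of the members and 8.55% of all genes were called higher, and at 10d against CK 32.9% and 18.5%.

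At 1h the members with the largest rise were EVM0006331, EVM0010202 and EVM0011756. EVM0006331 went from 247, 108 and 107 in CK to 694, 863 and 1187 at 1h and 625, 552 and 574 at 6h. The 1h rise on the log2 scale was 2.83 (SE 0.10, limma adjusted p = 4.74e-10) and the 6h rise 2.43 (SE 0.10), and all 18 libraries called both. At 5d the gene was at 173, 413 and 167. EVM0010202 was at 735, 702 and 715 at 1h and between 127 and 275 in the libraries from 1d on, against 246, 200 and 182 in CK. Its rise of 1.91 at 1h (SE 0.09) was followed by a fall of 1.51 on the log2 scale from 6h to 1d (-1.51, SE 0.08). EVM0006331 and EVM0010202 had kept group means of at least 300 at 1h and 6h alone, so their calls there are descriptions alone. EVM0011756 was at 62.4, 134 and 134 in CK and at 176 or more in every library with PSI. It was called up at all times except 1d over the kept libraries, and at all 5 times with all 18. Its kept group means reached 300 at 1h, 6h and 10d alone, so its calls there are descriptions alone.

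The largest falls at 1h were those of EVM0003229, EVM0008734 and EVM0004235. EVM0003229 dropped from 412, 241 and 240 in CK to 53.3, 64.9 and 90.7 at 1h, was at 394, 397 and 385 at 6h, and rose to 793, 823 and 985 at 1d. The 1h difference from CK on the log2 scale was -2.01 (SE 0.08, limma adjusted p = 1.21e-09) and the 1d difference 1.75 (SE 0.08), and all 18 libraries called both. EVM0004235 was at 749, 790 and 805 in CK, at 231, 198 and 153 at 1h and between 349 and 505 from 6h on. At 1h its log2 fold change was -1.89 (SE 0.09). EVM0008734 was at 396, 396 and 437 at 1h against 521, 1601 and 1508 in CK. Its fall of -1.97 (SE 0.11) was not called with all 18 libraries (-1.40, limma adjusted p = 0.0573), nor when T-1d-3 alone was added to the shared fit (-1.97). The count of members up at 1h varied with single libraries: without T-1h-1 11 members were up at 1h, against 11.9% of all genes, and without T-1h-2 4 were, against 9.74%.

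Members that rose at 6h included EVM0013101, and the largest falls at 6h were those of EVM0010966, EVM0012313 and EVM0000674. EVM0013101 was at 296, 138 and 134 in CK, 622, 615 and 669 at 6h and 605, 552 and 614 at 5d. It was called up at 6h (2.22, SE 0.40) and 5d (2.16, SE 0.44), and its 1h libraries, at 51.0, 220 and 259, were far apart. EVM0010966 fell from 600, 944 and 926 in CK to 205, 231 and 220 at 6h, where its log2 fold change was -2.09 (SE 0.09, limma adjusted p = 1.20e-09). From 1h to 6h it fell by 1.43 and from 6h to 1d it rose by 1.14 (SE 0.09), both also called with all 18 libraries. EVM0000674 was also lowest at 6h, with 193, 181 and 188 at 6h against 413, 580 and 556 in CK, and all its 6h libraries were below every other library. Its log2 fold change at 6h was -1.59 (SE 0.10).

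The step from 6h to 1d was the one with most falls among the members. From 6h to 1d 20 members were called down, or 27.4%, and 8 up, or 11.0%, against 16.7% and 5.24% of all genes tested. Median centring gave 14 down and 14 up, against 11.0% and 9.38% of all genes, and quantile normalization 12 and 10, against 10.6% and 9.38%. All 18 libraries gave 15 and 5, against 13.5% and 2.20%. Without T-1d-2 12 members were up, against 7.36% of all genes, and adding T-1d-3 gave 5, against 2.57%. Of the 20, 9 were also called down at 1d, 5d and 10d against CK, which is 12.3% of the members and 4.60% of all genes by the same criteria. With all 18 libraries 8 members met them, 11.0% against 4.21%.

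A group of members was high in CK, 1h and 6h and low from 1d on, with no overlap of single libraries. The boundary between 6h and 1d was chosen after the values were seen, so this is a description, and members outside the naming rule are named for this order. In 10 members every one of the 9 libraries of CK, 1h and 6h lay above every one of the 9 libraries of 1d, 5d and 10d, which is 13.7% of the members and 7.18% of all genes of the table. EVM0005474 was at 1412, 1365 and 1322 in CK, 1275, 1434 and 1491 at 1h and 1679, 1620 and 1593 at 6h, and at 226, 230 and 283 at 1d. It stayed between 238 and 398 at 5d and 10d. The log2 difference of 1d against 6h was -2.83 (SE 0.07, limma adjusted p = 1.85e-12), and -2.73 with all 18 libraries. EVM0012056 had nearly the same course, from 1919, 1758 and 1797 at 6h to 246, 244 and 297 at 1d.

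EVM0005779 and EVM0011191 belong to the same group and had falls among the 3 largest at 1d, 5d and 10d. EVM0005779 was at 814, 791 and 737 in CK and at 1034, 994 and 988 at 6h. At 1d it was at 67.4, 71.8 and 102, at 5d at 90.9, 163 and 96.1, and at 10d at 78.3, 69.5 and 78.8. Its log2 fold change against CK was -3.44 at 1d (SE 0.10) and -3.32 at 10d (SE 0.09, limma adjusted p = 8.67e-12). EVM0011191 went from 858, 863 and 868 in CK to 94.1, 93.7 and 139 at 1d and 161, 153 and 157 at 10d. The log2 fold changes were -3.19 (SE 0.08) and -2.45 (SE 0.07). Both genes had kept group means of at least 300 in CK, 1h and 6h alone, so their calls are descriptions alone. EVM0012313 started to fall earlier. It was at 1609, 2318 and 2352 in CK, 1676, 1653 and 1585 at 1h, 660, 646 and 638 at 6h and 108, 109 and 220 at 1d, and then at 325, 184 and 324 at 5d. At 1d its log2 fold change was -4.41 (SE 0.10, limma adjusted p = 9.37e-13), the largest fall of any member against CK, and -3.90 with all 18 libraries. The other members of the group were EVM0002120, EVM0011712, EVM0001774, EVM0012358 and EVM0002744, whose libraries up to 6h ran from 373 to 1145 and whose later libraries ran from 73.2 to 567.

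The reverse course, with all late libraries above all early ones, was found in 3 members, or 4.11%, against 2.73% of all genes. EVM0003033 had the widest gap. Its FPKM was 94.4, 63.2 and 68.1 in CK, 37.4, 33.8 and 33.0 at 1h, 163, 171 and 155 at 6h and 683, 803 and 734 at 1d. At 5d it was 503, 413 and 518 and at 10d 578, 600 and 632, so that each of these libraries was over the 6h level. The log2 fold change was 3.48 at 1d (SE 0.09, limma adjusted p = 3.57e-12), 2.94 at 5d and 3.18 at 10d, the largest rise of any member at these times. EVM0005214 went from 382, 454 and 466 in CK to 975, 1187 and 1358 at 1d (log2 fold change 1.22, SE 0.09). EVM0001930 rose later, to 1218, 1431 and 1335 at 5d against 622, 555 and 548 in CK (1.21, SE 0.11). Quantile normalization did not call EVM0001930 at 5d (0.53), while it called EVM0005214 at 1d.

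**Figure D5:**
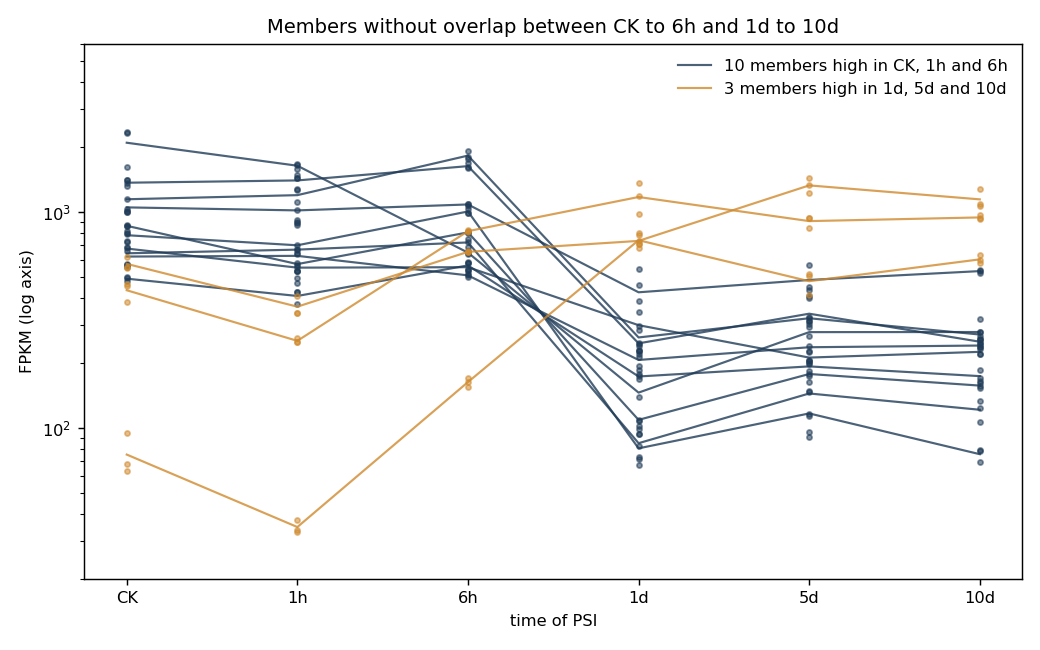
FPKM (log axis) of the 10 members whose CK, 1h and 6h libraries all lay above the 1d, 5d and 10d libraries, and of the 3 with the reverse order. Points are single libraries and lines are means of the 3 libraries of a group. EVM0003033 runs from 33.0 in T-1h-3 to 803 in T-1d-2.

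Some members were highest at 1d over the kept libraries. EVM0012106 was at 1986, 1575 and 624 at 1d against 176, 267 and 255 in CK. The log2 fold change was 2.76 (SE 0.11, limma adjusted p = 1.47e-10). T-1d-3 was the lowest of the 1d libraries and still above all other libraries. From 1d to 5d the gene fell by 2.28 on the log2 scale. EVM0008734 was at 5983, 4819 and 903 at 1d and at 850, 1971 and 905 at 5d. Its fall from 1d to 5d (-2.61, SE 0.11) was not called with all 18 libraries (-1.37, limma adjusted p = 0.0598), nor with T-1d-3 alone added. EVM0000336 was at 2240, 2444 and 2013 at 1d and at 1395, 444 and 424 in CK. At 1d it was called up in both sets of libraries (2.43, SE 0.19, and 1.80). The 5d libraries were at 446, 1533 and 478, again with the left-out one apart.

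At 10d the largest rises after EVM0003033 were those of EVM0007045 and EVM0011414. EVM0007045 was at 666, 529 and 653 at 10d against 230, 132 and 130 in CK. Its log2 fold change was 2.22 (SE 0.20), and 1.95 with all 18 libraries. EVM0011414 was at 464, 479 and 461 at 10d against 239, 124 and 118 in CK (1.94, SE 0.12), and was already at 477, 452 and 464 at 6h. Both were called with all 18 libraries at 10d. EVM0007045 had kept group means of at least 300 at 5d and 10d alone, and EVM0011414 at 6h, 1d, 5d and 10d alone. Each was called up in all of these groups, so these calls are descriptions alone.

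The other steps between neighbouring times moved fewer members down. From 1h to 6h 20 members were up, or 27.4%, and 4 down, or 5.48%, against 12.2% and 7.54% of all genes, and quantile normalization gave 11 and 10, against 9.10% and 10.3%. All 18 libraries gave 15 and 4, against 9.88% and 6.22%. From 1d to 5d 11 were up and 8 down, against 11.5% and 8.36% of all genes, and quantile normalization gave 6 and 9, against 9.83% and 9.74%. All 18 libraries gave 6 and 7, against 8.05% and 5.31%, and without T-1d-1 5 were up, against 8.92%. Between 5d and 10d 3 members were up, EVM0000336, EVM0009980 and EVM0010323, and 4 down, EVM0008528, EVM0012145, EVM0003943 and EVM0000266, of which EVM0009980, EVM0010323, EVM0003943 and EVM0000266 are named here after their values were seen. EVM0010323 is the member whose mean reached 300 at 10d alone, so it entered through the group in which it was then called higher, and its call is a description alone. The background was 2.94% and 7.44%, and quantile normalization gave 2 and 4, against 2.76% and 4.14%. With all 18 libraries limma called 0 members at this step, against 0.183% of all genes up and 0.274% down. An unadjusted limma p under 0.05 was then found in 19 of the 73 members and in 308 of the 1093 genes tested. Adding T-5d-2 alone to the kept libraries left 2 members, both down, against 1.56% of all genes.

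EVM0012145 and EVM0003943 went up and down in turn. EVM0012145 was at 94.6, 555 and 541 in CK and 325, 257 and 123 at 1h. It was at 1885, 1963 and 1950 at 6h and at 66.4, 70.7 and 329 at 1d. The 5d libraries gave 1774, 312 and 1624, and the 10d libraries 202, 271 and 229. In CK, 1d and 5d the left-out library lay far from the others. Over the kept libraries the gene rose from 1h to 6h and from 1d to 5d and fell from 6h to 1d and from 5d to 10d, each time with the largest change of any member in that direction. The log2 differences of the 4 steps in order of time were 2.74, -4.80, 4.61 and -2.87. With all 18 libraries these were 3.15, -4.05, 3.05 and -2.05, and the last was not called (limma adjusted p = 0.0944). EVM0003943, named after its values were seen, was at 818, 859 and 864 at 6h, 56.2, 61.2 and 153 at 1d and 1474, 420 and 1365 at 5d. Its step from 6h to 1d was -3.83 (SE 0.09) and that from 1d to 5d 4.57 (SE 0.10), both called with all 18 libraries as well (-3.37 and 3.53).

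The left-out libraries departed from their kept partners, in the members and in all genes of the table. In CK-1 4 members were over 2-fold higher and 6 over 2-fold lower than the kept CK libraries, which is 13.7% of the members against 12.9% of all genes. T-1d-3 and T-5d-2 also differed over 2-fold in 13.7% of the members, against 9.73% and 11.5% of all genes, and T-1h-3 in 4.11% against 5.36%. Between kept libraries of one group, no members differed over 2-fold except 2 between T-1h-1 and T-1h-2, which is 2.74% against 1.09% of all genes. In the other pairs of kept libraries between 0.182% and 1.82% of all genes differed over 2-fold. The largest departure was in EVM0012145 in CK-1 and T-5d-2 (log2 differences of -2.52 and -2.44), in EVM0008734 in T-1d-3 (-2.58) and in EVM0008528 in T-1h-3 (-1.26). Over all genes tested, the deviations of the 4 left-out libraries from their group means also correlated with each other. The Pearson correlation across genes was 0.337 to 0.592 in all 6 pairs. Between a left-out library and a kept one of another group it ran from -0.545 to 0.084. Between kept libraries of different groups it ran from -0.16 to 0.518. Deviations cancel out within a group, so its kept libraries mirror the left-out one, and the 3 ranges are not independent. The fits over all 18 libraries take the libraries as independent and do not allow for the correlation of the left-out ones.

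The members with the most even levels had coefficients of variation of 0.232, 0.243 and 0.245. They were EVM0008854, with 247 in its lowest and 474 in its highest library, EVM0012902, with 195 and 481, and EVM0010157, with 169 and 492. EVM0008854 and EVM0012902 were highest at 10d and called in no comparison. EVM0010157 was called up at 5d (1.02, SE 0.08) and not with all 18 libraries (0.93). In all, 6 members were called in none of the 9 comparisons, 8.22% against 16.5% of all genes tested, and with all 18 libraries 13 were, 17.8% against 21.9%. The median coefficient of variation was 0.435 in the members and 0.479 in the table. In 69 of 73 members the highest and the lowest group mean differed over 2-fold, 94.5% against 88.5% of the table. The median SD within groups of log2(FPKM + 1) was 0.107 over the kept libraries, against 0.148 for all genes, and 0.254 against 0.257 over all 18.

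By group, 10d held the highest mean of more members than any other group. The group with the highest mean was 10d for 22 members, or 30.1%, 6h and 1d for 15 each, 5d for 8, CK for 7, or 9.59%, and 1h for 6. In the whole table it was CK for 30.0% of the genes and 10d for 20.4%. Among the 679 other EVM genes outside the study's lists with a mean under 100, CK was highest for 32.1% and 10d lowest for 46.7%, against 9.59% of the members with their lowest mean at 10d. The 134 such genes with a mean from 100 to under 300 lay between, with 14.2% highest in CK and 23.9% lowest at 10d. At 10d 21.6% of these were called up and 26.1% down, and of those under 100 9.12% were up and 41.3% down. Among the 14 EVM genes of the study's lists with a mean of at least 300, 12 were up and 0 down at 10d, but the study chose these genes for their change in these libraries. These figures are descriptions, and the differences between the lists were not tested.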

How the data were processed

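Mycelium of S. latifolia was sequenced in 18 libraries, 3 in each of 6 groups, and grouped by their labels. The authors made the deposited FPKM values: per the paper, reads were mapped with HISAT2 and assembled with StringTie, and expression was estimated with an RSEM-based algorithm. Bowtie 0.12.2 stands in the submitters' processing notes too, and no genome build was named in the sources used here. The table names no unit and holds 1100 genes by a rule that is not stated. Read counts were not used here, so the depth behind each value is unknown. Errors come from the spread between libraries. FPKM received no further scaling. Genes that reached an FPKM of 1 in 2 or more libraries were transformed to log2(FPKM + 1), which understates the change of low genes. All 6 groups entered one limma 3.58.1 model in R 4.3.3 with a trend of the variance, over the 14 libraries kept by the study, which left 1088 genes (1093 with all 18). As the study left out 4 libraries by their correlation with the others, the SEs of the kept ones may be too small. Benjamini-Hochberg adjustment covered all genes tested, and calls needed a fold change over 2 with an adjusted p under 0.01. The fit was tested on simulated data. Each time was compared with CK, and neighbouring times with each other, 9 comparisons in all.

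Named members were the 10 with the highest mean, and for each time the 3 largest rises and 3 largest falls against CK without overlap of kept libraries. Added were the largest rise and fall of each step, members called one way at all times, the 3 lowest coefficients of variation and the genes next to the threshold. The rule, the members and the lists were chosen with earlier results of these data known. The alternatives tried were all 18 libraries, fits on the compared pair of groups, median centring, quantile normalization, no filter, a pseudocount of 0.1, no fold threshold, the replicate number as a block, each library left out, and other level rules. Adding single left-out libraries, the block with all 18 libraries, and direct comparisons of all times were chosen after seeing the data. Tables and figures were made in Python 3.11.15 with pandas 2.3.3, numpy 2.4.6 and matplotlib 3.10.9.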

Additional observations from a re-analysis of the deposited data

Results flagged for a closer look

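In 8 members the effect of PSI had opposite directions at different times: they were called up against CK at one time and down at another by limma over the kept libraries. They were 11.0% of the members, and 4.96% of all genes tested had opposite calls. Since calls in opposite directions from one CK, each over 2-fold, set a wide difference between these times, the direct differences given here are descriptions and no further support. All comparisons with CK share the CK libraries. EVM0012145 differed most, by -4.80 on the log2 scale between 1d and 6h (-4.05 with all 18 libraries). EVM0003943 differed by 4.57 between 5d and 1d (3.53 with all 18). For EVM0008734 the difference between 1d and 1h was 3.76 (2.85 with all 18), and for EVM0003229 it was also 3.76 (3.65 with all 18). EVM0000153 was at 841, 721 and 589 at 1d and at 95.7, 84.0 and 82.8 at 10d, a difference of -3.14 (-3.01 with all 18). EVM0000266 changed by -2.92 from 1d to 10d (-2.67 with all 18) and EVM0008528 by -2.76 (-2.26 with all 18). EVM0005603 was at 880, 976 and 1199 at 1h and at 201, 201 and 205 at 10d, a difference of -2.19 (-2.32 with all 18). Against CK, opposite calls were found in 4 members with all 18 libraries, 5.48% against 2.20% of all genes. These were EVM0005603, EVM0003229, EVM0000153 and EVM0003033, and EVM0003033 is not among the 8. With all 18 libraries EVM0008528 and EVM0008734 had no call against CK, and EVM0012145, EVM0003943 and EVM0000266 had calls in a single direction. Causes were not tested.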

How the results depend on the processing

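Leaving out each 6h library in turn gave 17, 18 and 17 members up and 4, 4 and 4 down at 6h against CK. Of all genes tested, 13.7%, 14.4% and 13.5% were then up and 8.36%, 9.38% and 9.74% down. Leaving out each 10d library gave 24, 23 and 23 members up and 18, 19 and 18 down at 10d against CK. All genes then gave 18.3%, 18.4% and 17.5% up and 34.8%, 34.8% and 34.5% down. Each other kept library was left out in the same way, where groups with 1 library left were assumed to vary like the others. None of the 45 fold changes of named members lost its call in these fits, and no fold change reversed in any alternative. Many of the named changes were chosen as the largest called ones without overlap of kept libraries, so these fits are no further support. EVM0009825 at 1d, at 0.97, had no call to lose. All 18 libraries ended the calls of 6 of the 45 fold changes. Quantile normalization ended 5, with that of EVM0003720 fixed by its rank, and median centring 0. Without the fold threshold, 35, 50, 55 and 59 members were called from 1h to 5d against CK, and 53, 47, 50 and 34 at the 4 steps. With the fold threshold, quantile normalization called 13 members at 6h. From 5d to 10d, all 18 libraries called 0, also with the block, and adding T-5d-2 left 2. From 1d to 5d, all 18 libraries with the block called 11, with 6 up and 5 down, against 7.59% and 4.57% of all genes. Of 26 pairs of same-numbered kept libraries 3 had a correlation of their deviations over 0.1, with a median of 0.00348, and of 55 other pairs 6. The highest was 0.2731 in same-numbered and 0.2621 in other pairs. Over all 18 libraries 7 of 45 same-numbered and 23 of 90 other pairs had a correlation over 0.1. Deviations mirror each other in groups with 2 kept libraries, so these pairs cannot settle whether same-numbered libraries deviate together. With the replicate number as a block, 14, 23, 34, 32 and 43 members were called against CK. At the steps 24, 28, 19 and 7 were. At 1h 8 were then up and 6 down, against 11.4% and 7.9% of all genes. The counts were 19 and 4 at 6h (14.2% and 9.1%) and 19 and 15 at 1d (8.46% and 18.2%). They were 19 and 13 at 5d (14.9% and 23.5%) and 25 and 18 at 10d (18.5% and 34.9%). The steps gave 20 and 4 from 1h to 6h (12.1% and 7.54%) and 9 and 19 from 6h to 1d (5.33% and 16.5%). They gave 11 and 8 from 1d to 5d (11.2% and 9.47%) and 3 and 4 from 5d to 10d (2.76% and 6.8%). The members' share of summed FPKM was 47.2% by the rule, 54.6% (113 members) with a threshold of 200, 33.4% (27 members) with 500, 44.1% with the median in place of the mean, and 40.2% without EVM0003720. Without counts, the error that counting adds to each FPKM could not be given.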

Other observations

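The number of members with an FPKM of at least 300 differed by library. It was 47, 44 and 42 in CK and 50, 53 and 50 at 1h. The 1d libraries had 40, 45 and 50 such members, and the 5d and 10d libraries between 50 and 54. With 62, 60 and 61, the 6h libraries had the most and stood apart from all other libraries, although their share of the summed FPKM was not the highest. In 19 members 3 of the 6 group means reached 300, in 9 members 2 did, and in 21 all 6 did.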
